A study of Danio rerio with 6 samples.

Results

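The genes described here write, copy and oxidize cytosine methylation in DNA: dnmt1, uhrf1, dnmt3aa, dnmt3ab, dnmt3ba, dnmt3bb.1, tet1, tet2 and tet3. They were chosen by symbol, by a rule that reads no measured value, though with earlier results of these data known, and all 9 were found among the 21317 rows of the table, each on 1 row. All 9 passed the filter of a mean of at least 10 normalized counts over the 6 libraries. RNA came from Tg(c-mybhyper:GFP) zebrafish embryos at 72 hpf (hours post-fertilization), a c-myb hyperactive line in which myelopoiesis is expanded. One group was exposed from 30 hpf to 60 µM Tan I (Tanshinone I), a lipid-soluble diterpene of Salvia miltiorrhiza that the study examined as an inhibitor of the histone methyltransferase EZH2. The control group received the solvent DMSO, and both groups carried the transgene. There were 3 libraries per group. How many embryos were pooled in a library, and whether libraries came from separate clutches, was not stated, so p-values measure the spread between these libraries.

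Methylation of cytosine in CpG pairs is copied after replication by Dnmt1, which is brought to half-methylated DNA by Uhrf1. The Dnmt3 enzymes add methyl groups to sites that carried none, and Tet dioxygenases oxidize 5-methylcytosine, the first step of its removal. In human myeloid leukemia DNMT3A and TET2 are often mutated, and in zebrafish Tet2 and Tet3 act together in the emergence of blood stem cells, while dnmt3bb.1 is used by blood stem and progenitor cells to keep c-myb expressed. DNA methylation itself was not measured in these libraries, and the values below are RNA levels of whole embryos, in which fewer cells of a type and less RNA per cell cannot be told apart.

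The unit was the normalized read count, the reads of a gene divided by 1 size factor per library. The libraries held between 15874701 and 24932190 reads in the table, with the 3 Tan I libraries the deepest. As a check of the exposure, cyp1a, a cytochrome P450 gene, lay between 366 and 849.6 normalized counts in DMSO and between 21051 and 29308 in Tan I. Of 30 markers of 10 tissues and cell types, from neurons and skeletal muscle to blood and liver, 28 were tested. Of these markers 1, the liver gene tfa, was lower after Tan I, and no marker was higher at a limma adjusted p under 0.05.

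None of the 9 genes passed that threshold. At an unadjusted limma p under 0.05 there were 4, dnmt3aa, dnmt3ab, dnmt3bb.1 and tet1, all lower in Tan I. edgeR on whole reads recovered from the values also called 0 of the 9, with 4 at an unadjusted p under 0.05, and DESeq2 called 0, with 2. In limma the number was 2 without the mean-variance trend and 3 with quantile normalization or with thinning to the smallest library. It was 5 with sample quality weights or with a replicate block. With 1 library left out, the number at an unadjusted limma p under 0.05 was 2 without DMSO replicate 1, 0 without DMSO replicate 2 and 1 without Tan I replicate 2, and 4 or 5 without one of the others. Among the 20836 tested genes 2.57% were called, 2.07% higher and 0.504% lower. An unadjusted p under 0.05 was found for 15.3% of all tested genes and for 6.5% in the lower direction. All 9 genes had a mean of at least 100, and among genes above this level the lower direction made up 7.73%.

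All 9 log2 fold changes were below 0, with a median of -0.14 and a range of -0.27 to -0.05. Among all tested genes 51.5% were below 0 and the median was -0.0067, and among genes with a mean of at least 100 the share was 54.7%. For 4 of the 9 genes every Tan I library lay below every DMSO library. Groups that did not overlap were found for 21.1% of all tested genes, 10.4% with Tan I lower, and for 12.1% with Tan I lower among genes with a mean of at least 100. Relative to the DMSO mean of each gene, 7 of the 9 were lower in Tan I replicate 1 and all 9 in Tan I replicates 2 and 3. In DMSO replicates 1 to 3 it was 5, 2 and 6. The DMSO libraries made up that mean and so must lie on both sides of it, and their counts are not a like control for those of Tan I. No p is given for the 9 genes as a group.

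**Figure D1:**
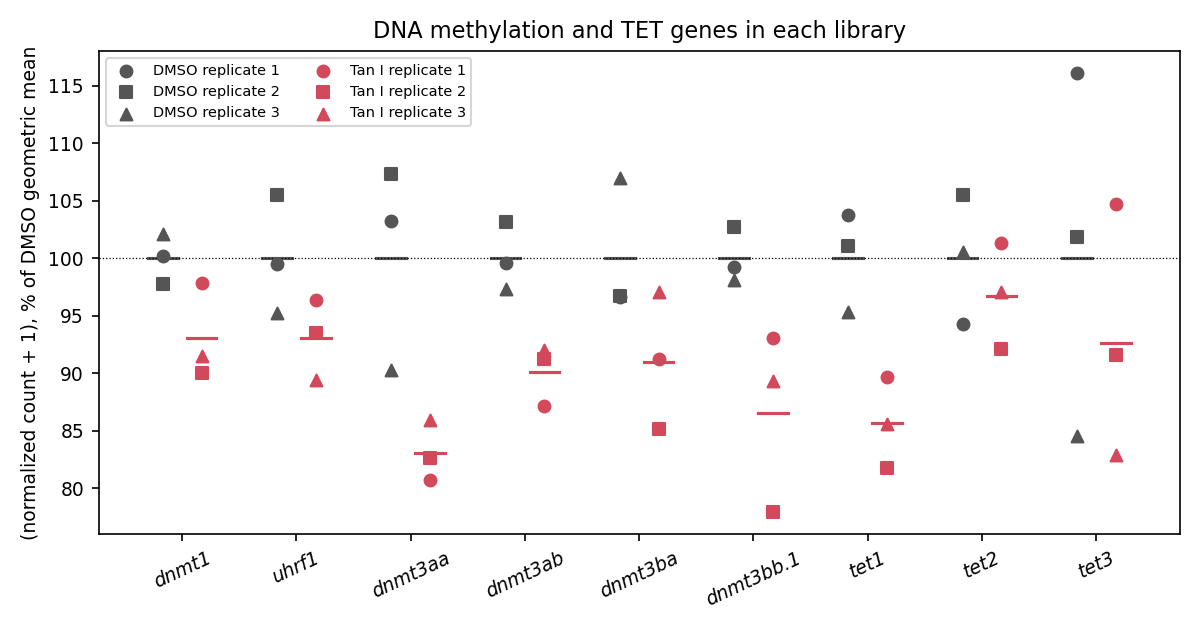
Level of each of the 9 genes in each library, as a percentage of the geometric mean of the DMSO libraries (y axis, from the normalized count plus 1), with a marker shape for each replicate number and a short line at each group's geometric mean. The Tan I points of dnmt3aa lie between 80.7% and 85.9%, below all DMSO points, and those of tet3 spread from 82.8% to 104.7%, beside 84.5% to 116.1% in DMSO.

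The maintenance genes are described first. The gene dnmt1 (ENSDARG00000030756), which encodes the maintenance methyltransferase, had 2319, 2262 and 2362 normalized counts in the DMSO libraries and 2264, 2082 and 2116.5 in the Tan I libraries, here and below in the order of replicates 1 to 3. Tan I replicate 1 lay just above the lowest DMSO library, and the other two Tan I libraries lay below all of DMSO. Group means (± SD, n = 3) were 2314 ± 50.2 for DMSO and 2154 ± 96.7 for Tan I, or 93.1% of DMSO. The difference on the log2 scale was -0.10 ± 0.06 (SE) in limma, adjusted p 0.476. Its 95% confidence interval ran from 84.5% to 102.4% of the DMSO level, so a fall to below 84.5% lay outside it.

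The partner gene uhrf1 (ENSDARG00000103409), whose product binds half-methylated DNA, had 2049, 2172 and 1962 normalized counts in DMSO and 1984, 1925 and 1840.3 in Tan I. The groups overlapped through Tan I replicate 1, which lay above DMSO replicate 3. Group means (± SD, n = 3) were 2061 ± 106 for DMSO and 1917 ± 72.4 for Tan I, or 93.0% of DMSO. The limma estimate was -0.10 ± 0.07 (SE) on the log2 scale, adjusted p 0.497, and the interval ran from 84.1% to 102.9% of DMSO. Without DMSO replicate 2 the estimate was -0.066.

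As both genes are transcribed with DNA replication, their levels were set beside pcna, the sliding clamp of replication forks. The ratio of dnmt1 to pcna in a library was 0.337, 0.303 and 0.324 in DMSO and 0.340, 0.327 and 0.310 in Tan I, and the groups overlapped. For uhrf1 the ratio to pcna was 0.297, 0.291 and 0.269 in DMSO and 0.298, 0.302 and 0.269 in Tan I. The ratio of dnmt1 to uhrf1 lay between 1.04 and 1.20 in DMSO and between 1.08 and 1.15 in Tan I. These ratios of read counts were chosen after the values of the 9 genes were seen, and they describe differences between libraries, not the relative amounts of the transcripts.

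Among the Dnmt3 genes, which establish methylation, the 2 copies of DNMT3A and 1 of the copies of DNMT3B did not overlap between groups. The lowest fold change of the 9 genes was that of dnmt3aa (ENSDARG00000005394). It had 569, 591 and 497 normalized counts in DMSO and 445, 455 and 473 in Tan I. The highest Tan I library lay below the lowest DMSO library, by a small margin. Group means (± SD, n = 3) were 552 ± 49.2 for DMSO and 458 ± 14.5 for Tan I, 82.8% of DMSO. This was -0.27 ± 0.09 (SE) on the log2 scale. With a limma adjusted p of 0.163 it was not past the threshold, and the interval ran from 72.7% to 94.98% of DMSO. In rank by fold change, dnmt3aa stood at the 7.37th percentile of all tested genes, counted from the lowest.

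The second DNMT3A copy, dnmt3ab (ENSDARG00000015566), had 1851, 1916 and 1808 normalized counts in DMSO and 1618, 1695 and 1709 in Tan I. All 3 Tan I libraries again lay below all of DMSO. The means were 1858 ± 54.2 and 1674 ± 48.6 (SD, n = 3), and that of Tan I was 90.1% of DMSO. The limma estimate was -0.15 ± 0.06 (SE) on the log2 scale, adjusted p 0.283, with an interval from 81.8% to 99.2% of DMSO. The ratio of dnmt3aa to dnmt3ab lay between 0.275 and 0.309 in DMSO and between 0.269 and 0.277 in Tan I, and these ranges overlapped. In the RefSeq annotation of GRCz12tu both copies have a copy of dystrobrevin beta as their neighbor, dtnba for dnmt3aa and dtnbb for dnmt3ab.

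For dnmt3bb.1 (ENSDARG00000036791), the DNMT3B copy known from zebrafish blood stem and progenitor cells, the normalized counts were 854, 884 and 844 in DMSO and 801, 670.4 and 768 in Tan I. The DMSO libraries were close to each other, and all Tan I libraries lay below them, with Tan I replicate 2 lowest. Group means (± SD, n = 3) were 861 ± 20.7 for DMSO and 746 ± 67.8 for Tan I, 86.7% of DMSO. The limma estimate was -0.21 ± 0.08 (SE) on the log2 scale, adjusted p 0.242, with an interval from 76.5% to 97.9% of DMSO. Without Tan I replicate 2 the log2 fold change was -0.13.

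The level of dnmt3bb.1 was also read beside myb, the gene that it helps to keep expressed. The normalized counts of myb were 1569.7, 1677 and 1589 under DMSO and 1776, 1544 and 1617 under Tan I. These groups overlapped, with a log2 fold change of 0.028 (limma adjusted p 0.893). The ratio of dnmt3bb.1 to myb was 0.544, 0.527 and 0.531 in DMSO and 0.451, 0.434 and 0.475 in Tan I. It was thus lower in every Tan I library. This ratio was chosen after the values of dnmt3bb.1 were seen, and reads that the transgene may add to myb were not separated. Among other genes of blood stem and progenitor cells, runx1 had a log2 fold change of 0.029 with an adjusted p of 0.958 in limma.

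The last of the listed DNMT3B copies, dnmt3ba (ENSDARG00000052402), had 2022, 2023 and 2238 normalized counts in DMSO and 1908, 1781 and 2030.5 in Tan I. Tan I replicate 3 lay above DMSO replicates 1 and 2, and the groups overlapped. Group means (± SD, n = 3) were 2094 ± 124 for DMSO and 1906 ± 125 for Tan I, 91.0% of DMSO, and limma estimated the difference at -0.14 ± 0.07 (SE) on the log2 scale, adjusted p 0.409. The estimate was -0.087 without DMSO replicate 3 and -0.088 without Tan I replicate 2. The ratio of dnmt3bb.1 to dnmt3ba lay between 0.377 and 0.437 in DMSO and between 0.376 and 0.420 in Tan I.

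The 2 further DNMT3B copies, dnmt3bb.2 (ENSDARG00000057830) and dnmt3bb.3 (ENSDARG00000057863), lie in a row with dnmt3bb.1 in the RefSeq annotation of GRCz12tu, where dnmt3bb.2 is the neighbor of both others. Their normalized counts under DMSO were 274, 271 and 369 for dnmt3bb.2 and 194, 204 and 226 for dnmt3bb.3. Under Tan I they were 310.1, 279 and 295 for dnmt3bb.2 and 177, 194 and 203 for dnmt3bb.3. Both overlapped between groups. The log2 fold changes were -0.03 ± 0.12 and -0.12 ± 0.12 (SE), with limma adjusted p of 0.928 and 0.675, and that of dnmt3bb.2 was 0.037 when libraries were thinned to the smallest and 0.11 without DMSO replicate 3. As reads that mapped to several places were removed, copies that are alike in sequence may have lost reads, and how alike these copies are was not tested here.

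Summed over the 4 Dnmt3 genes among the 9, the normalized counts were 5295, 5414 and 5388 in DMSO and 4771, 4601 and 4981 in Tan I. The sum in every Tan I library was lower than in every DMSO library, and the Tan I mean of 4784 ± 190.2 (SD, n = 3) compared with 5366 ± 62.6 in DMSO. With the other two copies added the sums lay between 5763 and 5983 in DMSO and between 5074 and 5479 in Tan I, again without overlap. For dnmt1 and uhrf1 together the sums were 4324 to 4434 in DMSO and 3957 to 4249 in Tan I. These did not overlap, though each of these genes overlapped when taken alone. Those of the 3 Tet genes, 6616 to 8184 in DMSO and 6430.4 to 7670 in Tan I, overlapped. The sums over the 33 rows of S-phase genes described below did not overlap either, at 38599 to 39601 in DMSO and 34391 to 37268 in Tan I. As 3 of the 4 Dnmt3 genes did not overlap on their own, the Dnmt3 sums largely restate those genes. No test was made on these sums, and how often sums of other genes do not overlap was not counted.

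**Figure D2:**
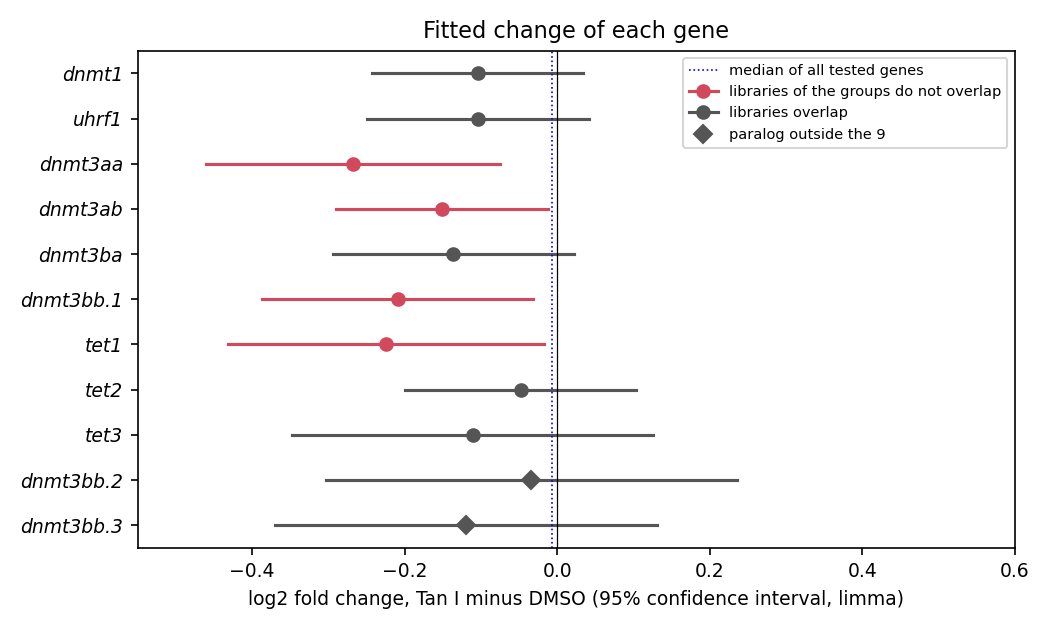
Fitted log2 fold change of Tan I against DMSO (x axis) with its 95% confidence interval for the 9 genes (circles) and the paralogs dnmt3bb.2 and dnmt3bb.3 (diamonds), with genes whose libraries did not overlap in red. All 11 estimates lie left of 0 (that of dnmt3bb.2 turned to 0.037 when libraries were thinned to the smallest), and the intervals of dnmt3aa, dnmt3ab, dnmt3bb.1 and tet1 end below 0, while all 11 intervals overlap each other.

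The Tet genes, whose products begin the removal of methylation, had fold changes of unequal size, with tet1 lowest. The gene tet1 (ENSDARG00000075230) had 333, 324 and 306 normalized counts in DMSO and 288, 262 and 274 in Tan I. All Tan I libraries lay below DMSO. Group means (± SD, n = 3) were 321 ± 13.8 for DMSO and 275 ± 12.7 for Tan I, 85.6% of DMSO. The limma estimate was -0.22 ± 0.10 (SE) on the log2 scale, adjusted p 0.286, with an interval from 74.2% to 98.8% of DMSO. With between 267 and 370 reads in a library, tet1 was the most thinly counted of the 9 genes.

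The gene tet2 (ENSDARG00000076928) had 1757, 1967 and 1874 normalized counts in DMSO and 1889, 1717 and 1808 in Tan I. The groups overlapped, and the Tan I mean of 1805 ± 85.9 was 96.7% of the DMSO mean of 1866 ± 105 (SD, n = 3). The limma estimate was -0.05 ± 0.07 (SE) on the log2 scale, adjusted p 0.803 and an interval from 87.1% to 107.4% of DMSO. It was -0.0089 without DMSO replicate 2, -0.012 without Tan I replicate 2, -0.081 without Tan I replicate 1 and -0.090 without DMSO replicate 1. With all libraries this was the fold change closest to 0 of the 9 genes. Of the ratios read within libraries, that of tet1 to tet2 was the other that did not overlap, with 0.189, 0.165 and 0.163 in DMSO and 0.1523, 0.1527 and 0.1518 in Tan I. It was chosen after the values of the 9 genes were seen.

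The gene tet3 (ENSDARG00000062646) varied most between libraries of 1 group. Its normalized counts were 6094, 5346 and 4436 in DMSO and 5493, 4806 and 4347 in Tan I. The means of 5292 ± 830.5 and 4882 ± 577 (SD, n = 3) differed by less than the spread within either group. The difference on the log2 scale was -0.11 ± 0.11 (SE) in limma, adjusted p 0.681 and an interval from 78.6% to 109.1% of DMSO. It was -0.0030 without DMSO replicate 1 and -0.23 without DMSO replicate 3, while leaving out Tan I replicate 1 gave -0.20 and leaving out Tan I replicate 3 gave -0.030, so single libraries of both groups moved its size. In both groups replicate 1 was highest and replicate 3 lowest, and at each replicate number Tan I lay below DMSO. In a limma fit with a replicate block tet3 had an unadjusted p of 0.0631 and an adjusted p of 0.293. Without the block these were 0.329 and 0.681 in limma. On the second principal component of all genes, DMSO replicates 1 to 3 lay at 26.6, 2.39 and -21.2 and Tan I replicates 1 to 3 at 7.52, 2.32 and -17.6, in the same order. The summed markers of the lens, from 2733 to 5098 normalized counts in DMSO and from 2378 to 4884 in Tan I, also had replicate 1 highest and replicate 3 lowest in both groups. The part of these differences in the values of tet3 was not tested.

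The direction of the 9 genes was then read under other settings and with libraries left out. In each of the 18 alternative fits, 6 of which left out 1 library each, all 9 log2 fold changes were below 0, and in none was any of the 9 called. These fits share most of their libraries and are not independent. With sample quality weights the limma adjusted p was 0.0532 for dnmt3aa and 0.0646 for dnmt3bb.1, the lowest of each. Without DMSO replicate 2 that of dnmt3aa was 0.494, the highest over its alternatives.

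By level in single libraries, genes with a mean of at least 100 were compared with dnmt3aa and dnmt3bb.1, which had the smallest limma p of the 9, as centered log2 values over the 6 libraries. Of 15066 genes, the nearest to dnmt3aa was tln2b, a talin gene, with a mean absolute difference of 0.023. Next were bptf (0.026), which encodes a subunit of a nucleosome remodeling complex, and zdhhc12a (0.026). Nearest to dnmt3bb.1 were gemin5 (0.013), fndc1 (0.020) and hspa14 (0.020). Choosing the nearest genes fixed their direction, lower in Tan I without overlap for all 6. None was called by limma, with bptf closest at a log2 fold change of -0.26 and an adjusted p of 0.0578. DESeq2 called bptf, with an adjusted p of 0.0341, as did limma with sample quality weights (0.0139) and with a replicate block (0.0177).

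Genes that work with the 9 were then read from 9 lists. The list of methyltransferase partners held usp7, which stabilizes Uhrf1 and Dnmt1 in mammals, hells, a remodeler needed for DNA methylation, the hells partners cdca7a and cdca7b, and trdmt1, which methylates transfer RNA. Of its 10 tested genes limma called 0, as did edgeR and DESeq2, and 1, usp7, had an unadjusted p under 0.05. In all 9 of 10 were below 0, with a median log2 fold change of -0.12. The lowest p was that of usp7, with a log2 fold change of -0.17 and a limma adjusted p of 0.255, followed by hells with -0.20 and 0.329. The exception was trdmt1 with 0.12, at a limma adjusted p of 0.835. The symbol uhrf2 was on no row and was not analysed here.

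The S-phase genes, which serve DNA replication, came next. Of 33 tested rows of S-phase genes 28 were below 0, with a median log2 fold change of -0.10. In 10 of the 33 (30.3%) all Tan I libraries lay below all DMSO libraries. The same was found for 10.4% of all tested genes and for 12.1% of those with a mean of at least 100. limma, edgeR and DESeq2 called 0 of them, and 5 rows had an unadjusted limma p under 0.05. These were the replicative helicase genes mcm2, mcm3, mcm5, mcm6 and mcm7. The gene mcm2 had 2618, 2483 and 2313 normalized counts in DMSO and 2154, 2059 and 1982 in Tan I, a log2 fold change of -0.26 with a limma adjusted p of 0.0767. For mcm3 the log2 fold change was -0.27 with an adjusted p of 0.0825 in the same limma fit. The 2 smallest p in the other direction were those of cdc45 (0.09) and gins1 (0.11), both with limma adjusted p over 0.7 (0.767 and 0.817). Of 18 rows of mitosis genes 9 were below 0 and 9 above, with a median of -0.0035, and 0 were called by limma, edgeR or DESeq2, with 0 at an unadjusted limma p under 0.05. The smallest p were those of kif11 (-0.14) and ccna2 (-0.13) among the lower genes, and birc5a (0.22) and ccnb1 (0.13) among the higher. How far the 9 genes follow S-phase or the share of dividing cells was not tested.

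The methyl-CpG readers, proteins that bind methylated DNA, were below 0 in 8 of 12 cases with a median of -0.09, which was -0.046 without Tan I replicate 1 and -0.047 without DMSO replicate 3. None was called by limma, edgeR or DESeq2, and 1 had an unadjusted limma p under 0.05. This was mbd1a, with 965, 1116 and 1025 normalized counts in DMSO and 806, 902 and 895 in Tan I, and a log2 fold change of -0.25 (limma adjusted p 0.140). The others named by the rule were mbd6 (-0.14), mbd4 (0.21), which is also a repair glycosylase, and zbtb38 (0.14).

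Genes of 5-methylcytosine removal and base excision repair had fold changes of both signs. Of 18 tested, 11 were above 0, 7 below and 0 called by limma, edgeR or DESeq2, with 3 at an unadjusted limma p under 0.05. The repair endonuclease gene apex1 had 2094, 2139.5 and 2089 normalized counts in DMSO and 1772, 1656 and 1905 in Tan I, a log2 fold change of -0.25 with a limma adjusted p of 0.0896. Without Tan I replicate 3 its adjusted p in limma was 0.0415. The repair and signaling gene parp1 had a log2 fold change of -0.17, and the stress genes gadd45ga and gadd45aa had 0.25 and 0.33, all with limma adjusted p over 0.2 (0.275, 0.277 and 0.393).

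The RNA of genes tied to the supply of substrate did not show 1 direction, and substrate itself was not measured. Tet enzymes need iron and 2-oxoglutarate, which isocitrate dehydrogenases make, and are inhibited by succinate. Of 21 rows of Tet cofactor and partner genes 12 were above 0 and 0 were called by limma, edgeR or DESeq2, with 2 at an unadjusted limma p under 0.05. The cytosolic isocitrate dehydrogenase gene idh1 had means (± SD, n = 3) of 2449 ± 139 under DMSO and 2890.4 ± 160.2 under Tan I, with a log2 fold change of 0.24 and a limma adjusted p of 0.105. The succinate dehydrogenase gene sdhb had a log2 fold change of 0.15, and ogdhb had -0.09. Of 23 methyl donor and folate genes 12 were above 0 and 11 below, with a median of 0.00056 and 0 called by limma, edgeR or DESeq2, 3 having an unadjusted limma p under 0.05. The folate enzyme gene mthfd1b had a log2 fold change of -0.24 (limma adjusted p 0.105). The methionine synthase gene mtr had -0.23 (limma adjusted p 0.149). Higher values were found for gnmt (0.15), which consumes the methyl donor S-adenosylmethionine, and mthfd1l (0.17).

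Finally, genes that are silenced through DNA methylation or raised when it is lost were read. In zebrafish mutants of dnmt1 and uhrf1 antiviral genes are raised, and germline genes are kept methylated in other tissues. Of 10 tested antiviral genes 9 were above 0, with a median log2 fold change of 0.18. Below 0 were 51.5% of all tested genes and 54.7% of those with a mean of at least 100, so weaker genes lay above 0 more often. Without DMSO replicate 3, 4 of the 10 were below 0, and without DMSO replicate 2 the median was 0.28. Only 1 was called, irf7 (ENSDARG00000045661), an interferon regulatory factor. It had 39.3, 43.7 and 51.2 normalized counts in DMSO and 98.7, 74.9 and 75.7 in Tan I, all Tan I libraries being higher. The difference on the log2 scale was 0.88 ± 0.19 (SE) in limma, adjusted p 0.0312, and edgeR and DESeq2 called it too. The call was lost without DMSO replicate 1 (adjusted p 0.0874), DMSO replicate 2 (0.121), Tan I replicate 1 (0.155) or Tan I replicate 2 (0.0829), and over all its alternatives the limma, edgeR and DESeq2 adjusted p ran from 0.0151 to 0.155. With 34 to 127 reads in a library, irf7 was weakly expressed. The gene stat1a had a log2 fold change of 0.22 (limma adjusted p 0.238), and isg15, with means of 8.86 and 14.3 normalized counts, had 0.57 (limma adjusted p 0.538). The reads of isg15 ran from 6 to 23 in a library, with the 23 in Tan I replicate 2. As its DMSO mean was below 10, isg15 passed the filter only through its Tan I values. It is still counted among the 9 genes above 0 and in the median. Closest to 0 among the 10 were irf3 (0.0055), mxc (-0.016) and ifih1 (0.095), with limma adjusted p of 0.995, 0.988 and 0.922. The Tan I mean of irf3, 31.0 normalized counts, was below its DMSO mean of 31.8, though its fitted change counts as above 0. The log2 fold change of dhx58 was 0.46 (limma adjusted p 0.699), on 4 to 18 reads in a library. The symbols of 12 of the 22 listed genes were on no row. Of the 10 tested, only stat1a, stat2 and mavs had a mean of at least 100 normalized counts.

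Of 16 listed germline genes only 9 were on a row and 8 were tested, with dazl below the filter. Of the 8 tested genes 7 were above 0, with a median log2 fold change of 0.21. None was called by limma, edgeR or DESeq2, and 1 had an unadjusted limma p under 0.05. This was tdrd9, with means (± SD, n = 3) of 29.3 ± 8.002 under DMSO and 47.2 ± 6.12 under Tan I and a log2 fold change of 0.70 (limma adjusted p 0.201). For tdrd6 the log2 fold change was 0.58 (limma adjusted p 0.328), and for ddx4, known as vasa, it was -0.10 (limma adjusted p 0.819). All 8 genes had a mean under 100 normalized counts in both groups. Of the 20836 tested genes 10726 (51.5%) were below 0. Among the 15067 of them with a mean of at least 100, 8249 (54.7%) were below 0. Genes under that level thus lay above 0 more often than genes over it, and their share was not taken alone.

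**Figure D3:**
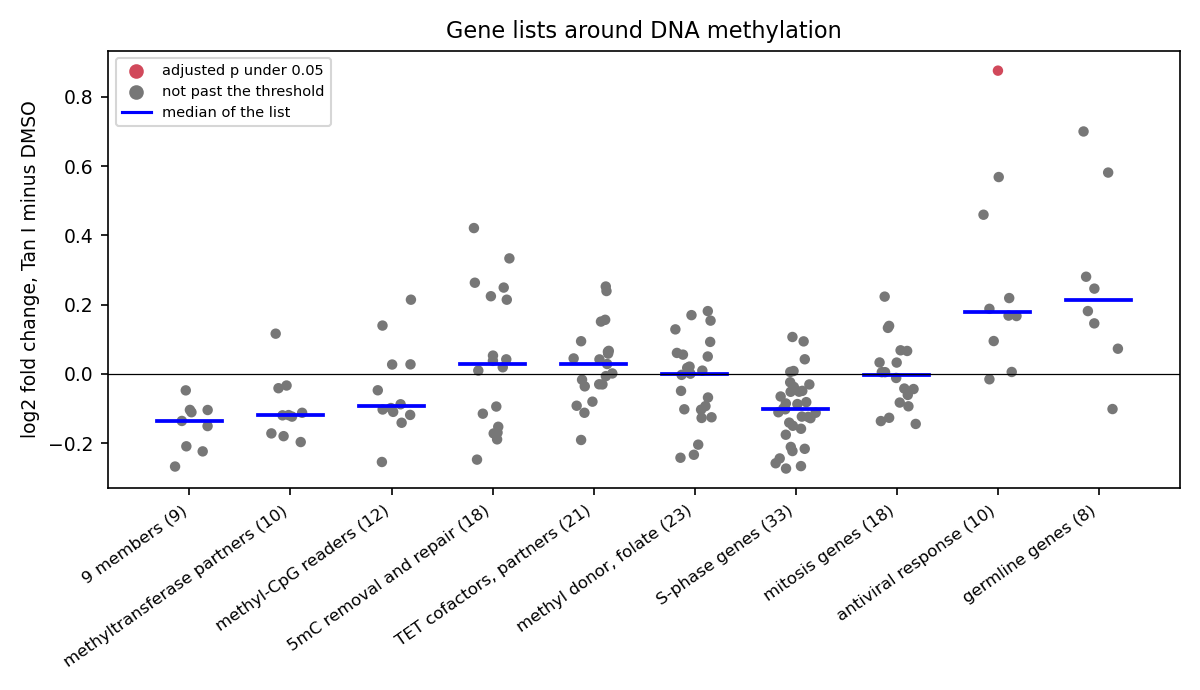
Log2 fold change of Tan I against DMSO (y axis) for every tested row of the 9 genes and of the 9 lists (x axis, number of rows in brackets), with a line at the median of each and red for an adjusted p under 0.05. The medians of the 9 genes, their partners and the S-phase genes lie at -0.14, -0.12 and -0.10, and the single red point is irf7 at 0.88, a call that was lost when any of 4 of the 6 libraries was left out. The row of pcna is counted among both the partners and the S-phase genes.

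Markers of tissues and cell types were also read, beginning with the liver. The summed normalized counts of tfa and fabp10a lay between 24512 and 25586 in DMSO and between 13939 and 17255 in Tan I. For tfa, the transferrin gene, the log2 fold change was -0.73 with a limma adjusted p of 0.000303, and for fabp10a it was -0.53 with a limma adjusted p of 0.0895. The summed markers of neurons lay between 17150.1 and 19040.3 in DMSO and between 16204 and 18424 in Tan I, and those of retinal progenitors between 3590.2 and 4186 and between 3452 and 3866. Both overlapped. The summed markers of granulocytes, of interest in a line with expanded myelopoiesis, lay between 1146 and 1253 in DMSO and between 1317 and 1562 in Tan I. These did not overlap, as was found for 21.1% of all tested genes taken singly. Of these 3 markers 0 were called by limma, with 2, mpx and lyz, at an unadjusted p under 0.05. For mpx, the myeloperoxidase gene, the log2 fold change was 0.40 with a limma adjusted p of 0.103. For lyz it was 0.43 (limma adjusted p 0.290), and its groups overlapped. By in situ hybridization, a different measure, the study reported the other direction for lyz in this line, with expression restricted by Tan I. The third granulocyte marker, srgn, had 0.045 (limma adjusted p 0.883). Both macrophage markers were below 0, marco at -0.80 (limma p 0.0172, adjusted p 0.207) and mpeg1.1 at -0.15 (limma adjusted p 0.803). Their sums lay between 78.9 and 116.8 in DMSO and between 62.2 and 88.6 in Tan I, and overlapped. The part of tissue makeup in the values of the 9 genes was not tested. The gene ezh2, the target on which the study centered, had 733 to 1063 normalized counts in DMSO and 729 to 850.0 in Tan I, and its log2 fold change of -0.22 had a limma adjusted p of 0.407. The value of ezh2 ran from -0.37 without DMSO replicate 1 to -0.10 without DMSO replicate 3.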

How the data were processed

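RNA-seq of 3 DMSO and 3 Tan I libraries was analyzed. Per the labels and the study's methods, the authors aligned paired-end reads to GRCz11 with STAR, removed reads that mapped to several places, and counted with featureCounts. Versions and use of strand are not given in the sources used here, so overlapping and antisense genes are uncertain. The deposited signal values are counts that the authors divided by a DESeq2 size factor. Deposited columns also held the mean of the 6 libraries and the authors' own comparison, as log2 fold change with standard error, test score, p-value and adjusted p-value, and these were not used. Every value was a whole multiple of the value of 1 read (100% of values in all 6 libraries, tolerance 0.01), and reads were recovered by division.

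Genes with a mean of at least 10 (20836 of 21317) were tested on log2(value + 1) with limma (version 3.58.1, trend, R 4.3.3), 2-sided, with no covariate. The added 1 pulls log2 ratios of low values toward 0. As means of log2 values are compared, a fitted change of a weak gene can still exceed that of its plain means. For dhx58 these were 137.5% and 118.6% of DMSO. Benjamini-Hochberg adjustment covered all tested genes, and calls had an adjusted p under 0.05. Percentages of DMSO in intervals are on this scale. edgeR (version 4.0.16) and DESeq2 (version 1.42.0) were run on recovered reads. The other alternatives were pseudocounts of 0.1 and 10, no filter, a mean of at least 100, upper-quartile and quantile scaling, no trend, sample quality weights, thinning to the smallest library, a replicate block, and leaving out each library. The test was tried on simulated data. The outcome is not given here, so it does not tell how often changes as small as those of the 9 genes are found. The 9 genes and the lists were chosen with earlier results of these data known. Always named were the 9 genes, dnmt3bb.2, dnmt3bb.3, uhrf2, ezh2 and cyp1a. Of each list, called genes were named, or else up to 2 with the smallest p in each direction. One gene that this rule names is not reported here. For the 2 genes with the smallest p, the 3 nearest genes were named. Genes named beyond this rule (mcm5, mcm6, mcm7, cdca7a, cdca7b, pcna, stat1a, stat2, mavs, isg15, irf3, mxc, ifih1, dhx58, myb, runx1, tfa, fabp10a, mpx, lyz, srgn, marco and mpeg1.1) were taken after their values were seen. Gene symbols were those of the table, and all 9 gene IDs were found in a separate table of gene names. Chi-square per gene between libraries of a group was 3.82 to 14.6, above counting error, so no library was counted as a duplicate.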

Additional observations from a re-analysis of the deposited data

How the results depend on the processing

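None of the 9 genes was called under any of the 18 alternatives, and the number of calls over all genes moved more. The 536 calls (431 higher, 105 lower) became 165 (147 and 18) without the mean-variance trend and 984 (743 and 241) with sample quality weights. Leaving out 1 library gave 213 to 709 calls, 184 to 556 higher and 29 to 153 lower, with the fewest without DMSO replicate 2 and the most without Tan I replicate 3. The cause was not tested.

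The median log2 fold change of the 9 genes was -0.17 (DMSO replicate 3 left out) to -0.11 (Tan I replicate 2 left out). Among the other named genes, dnmt3bb.2 turned to 0.037 after thinning, and ran from -0.11 to 0.11 when 1 library was left out. Likewise trdmt1 ran from -0.067 to 0.21, cdc45 from -0.0090 to 0.15 and gins1 from -0.062 to 0.25, and gins1 was -0.056 with sample quality weights. None of these was called in any fit. The list medians with 1 library left out ran from -0.16 to -0.079 for the partners, 0.0053 to 0.058 for Tet cofactors and 0.16 to 0.30 for germline genes, and changed sign for repair (-0.034 to 0.051), folate (-0.024 to 0.011) and mitosis genes (-0.029 to 0.013). The call of irf7 was also lost without the trend (limma adjusted p 0.0683).

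A replicate block in the fit gave 1093 calls, 774 of them higher and 319 lower, 0 of the 9 among them, and 5 of the 9 had an unadjusted limma p under 0.05. There bptf, mbd1a, apex1, idh1, mthfd1b, mcm2, mcm3, mcm6 and mcm7 passed the threshold. With sample quality weights bptf, apex1, idh1, mthfd1b, mcm2, mcm3 and mcm6 did, after thinning mcm2 did (adjusted p 0.0432, limma), and without Tan I replicate 3 mcm3 did (adjusted p 0.0367, limma). Deviations of same-numbered libraries correlated at 0.081, -0.029 and 0.21, and the main fit did not take the numbers as pairs. The block raised the number of calls all the same, and whether same-numbered libraries share a clutch is not stated. With 3 libraries a group, the 95% intervals of the 9 genes spanned 72.7% to 109.1% of DMSO, and they cover the spread between these libraries only.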
